A study of Homo sapiens with 21 samples.

Results

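Small nucleolar RNA (snoRNA) host genes are genes that carry snoRNAs inside their introns. Here they are the rows of the count tables whose symbol is SNHG followed by a number only, together with GAS5, ZFAS1, DANCR and EPB41L4A-AS1. This gave 32 host genes of the 60668 rows in each table. The rule goes by symbol and uses no measured value, but it was chosen with earlier results of these data known. They were followed in HCC1806, an established line of basal-like triple-negative breast cancer (without estrogen and progesterone receptor or HER2 amplification) grown as a monolayer.

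The 21 libraries form 7 groups of 3. The labels title 3 of the groups 3XCTL (genotype control, written 3xCTL here), 3XSR (genotype 3xSR, the line made to overexpress the splicing factors SRSF2, SRSF3 and SRSF7 together) and MYC-OE, which overexpresses the transcription factor MYC. The other 4 groups are 1xCtrl, a single plasmid control, and 3 lines that each overexpress 1 of the factors, written SRSF2-OE, SRSF3-OE and SRSF7-OE after their genotype labels. The first 3 groups are in one deposited count table and the other 4 in a second, and each line was set against the control of its own table. The labels do not say which vector or promoter was used, whether a line is 1 clone, or whether MYC-OE and 3xCTL carry matching vectors. They do not say that replicates are separate cultures, so p-values measure only the spread between these samples, which may be technical.

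In a host gene the spliced exons form one RNA and the introns form another product. After splicing, exonucleases trim the debranched intron back to the snoRNA, which is protected by its proteins. Box C/D snoRNAs guide 2'-O-methylation and H/ACA snoRNAs guide pseudouridylation, mostly of ribosomal RNA, while the related scaRNAs act on the small nuclear RNAs of the spliceosome. Many spliced host RNAs hold short open reading frames that end far upstream of an exon junction and are destroyed by nonsense-mediated decay, a pathway coupled to translation. SR proteins such as SRSF2, SRSF3 and SRSF7 bind exons and promote their splicing, and overexpressed SR proteins are known to be able to strengthen this decay. Several host genes begin with a tract of pyrimidines at the first base of the RNA, the 5' terminal oligopyrimidine (TOP) motif, which ties translation to growth signals and is typical of ribosomal protein genes. MYC is a transcriptional activator of ribosome production that binds the sequence CACGTG.

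The members carry 147 snoRNA or scaRNA genes within their bounds in RefSeq: 121 of box C/D type, 22 of H/ACA type and 4 scaRNAs. Of the box C/D genes, 83 lie in SNHG14, the long imprinted transcript of the Prader-Willi region on chromosome 15. By cargo, 13 members hold box C/D snoRNAs only, 11 H/ACA only, 2 hold both (GAS5 and SNHG12), 4 hold a scaRNA (SNHG10, SNHG20, SNHG21 and SNHG22), and for SNHG27 and SNHG28 none was found. Libraries were polyA-selected, so the values report host RNA with a polyA tail and were not read as levels of the snoRNAs. Of 136 of these snoRNA genes with a row in the tables, 63 had a median of 0 counts over the 21 libraries. The filter on low counts was passed by 20 of them in either table. Among these, SNORA73B in SNHG3 had a median of 787 counts, SNORD99 in SNHG12 one of 447 and SNORD104 in SNHG25 one of 365. The values do not separate spliced host RNA from RNA that keeps introns. In SNHG9 the joined exons of all annotated transcripts hold 551 bases, the span of the gene (chr16:1964959-1965509). In SNHG1 they hold 3756 bases of chr11:62851988-62855914.

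The first bases of 7 host genes are shown because they carry the TOP feature. The windows are RefSeq sequence of GRCh38.p14, 15 bases before and 15 bases from the annotated start, read 5' to 3' along the gene's strand. Capitals mark the unbroken run of C and T that begins at the start itself, as far as the window reaches. In SNHG18 the run has 21 bases and goes on past the window.
SNHG5: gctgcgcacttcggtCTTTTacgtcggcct
ZFAS1: aggaagccattcgttCTTTCgcgtctgcgg
SNHG32: ctcgccattttagttCTTTTTgcgaagtgg
SNHG19: ctcgcccgcccctgtCTTTTCggggtcgag
SNHG12: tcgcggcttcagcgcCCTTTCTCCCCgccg
SNHG4: ctcggctcccggctgCCCTTTCCCCTCCgg
SNHG18: ccgccgccgcgccgcCTCCTCCTCCTCCTC
The windows lie at chr6:85678719-85678748 (minus strand) for SNHG5, chr20:49278627-49278656 (plus) for ZFAS1, chr6:31834901-31834930 (plus) for SNHG32, chr16:2155344-2155373 (minus) for SNHG19, chr1:28581859-28581888 (minus) for SNHG12, chr5:139274086-139274115 (plus) for SNHG4 and chr5:9546185-9546214 (plus) for SNHG18. A window was found for 28 members. A C at the start followed by at least 4 pyrimidines was present in 7 of the 28, or 25.0%, against 4.07% of the 35116 promoter windows in the same table. The start is the one RefSeq annotates and was not measured in these cells, so the absence of the motif in another window says only that these letters are not at that base.

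The E-box CACGTG, read on the gene's strand and identical on both strands, was searched from 250 bases before to 50 after the start. It was present in 2 of the 28 members (7.14%) and in 7.26% of all windows. The 2 are shown with the E-box in capitals, as they are the members whose promoter could be set beside the MYC comparison.
SNHG7: gagcagcgccCACGTGcgggcgcggg
SNHG30: caggggcgccCACGTGacccgatggc
These bases are at chr9:136728291-136728316 (minus strand) and chr17:35568039-35568064 (plus) of GRCh38.p14. A match describes the letters and does not show binding. Neither gene was called in MYC-OE against 3xCTL: SNHG7 had a log2 fold change of -0.08 (edgeR, SE 0.0767, adjusted p = 0.487) and SNHG30 one of -0.07 (SE 0.0844, adjusted p = 0.55).

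Depth ran from 143269192 to 303323552 counts per library, at which 3 counts equal 0.00947 to 0.021 CPM. CPM is counts per mega-count of library size after TMM scaling, which corrects for composition and was done separately for each table. The cells had the levels of a basal epithelial line: KRT5 was at 1600 to 2650 CPM and EPCAM at 517 to 705 CPM, while PTPRC (leukocytes) stayed at or below 0.539 CPM and PECAM1 (endothelium) at or below 0.149 CPM. Of the fibroblast markers, COL1A1 was at 5.46 to 15.7 CPM and COL1A2 at or below 0.315 CPM. Of the receptor genes, ESR1 was at 6.49 to 11.5 CPM, PGR at or below 1.46 CPM and ERBB2 (HER2) at 99.6 to 184 CPM. The overexpressed genes were compared with the labels. MYC rose from 93.4 to 174 CPM in MYC-OE (edgeR log2 fold change 0.90, adjusted p = 5.7e-08), SRSF3 from 375 to 526 CPM in SRSF3-OE (0.49, adjusted p = 0.000193) and SRSF7 from 363 to 435 CPM in SRSF7-OE (0.26, adjusted p = 0.00616). In the libraries labelled 3xSR, SRSF3 (0.31, adjusted p = 0.00243) and SRSF7 (0.44, adjusted p = 3.57e-05) rose, and so did MYC (0.75, adjusted p = 4.01e-07). Genes that a label does not name moved as well. Under the SRSF2-OE label, SRSF3 (0.30, edgeR adjusted p = 0.00794) and SRSF7 (0.24, adjusted p = 0.00681) rose, SRSF7 to 428 CPM. MYC rose in SRSF3-OE (0.26, edgeR adjusted p = 0.00406) and SRSF7-OE (0.27, adjusted p = 0.00608), and SRSF2 fell in MYC-OE (-0.48, adjusted p = 2.32e-05) and SRSF7-OE (-0.38, adjusted p = 0.0018). SRSF2 did not rise at gene level where the label names it: the log2 fold change by edgeR was -0.16 (adjusted p = 0.098) where the label is SRSF2-OE and -0.06 (adjusted p = 0.389) where it is 3xSR. Every direction below for these groups rests on their labels. The lowest correlation between replicates was 0.99, between 1xCtrl replicates 2 and 3.

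Levels spanned more than 3 orders of magnitude. Per kilobase of exon, SNHG29 was highest, at 134 to 161 CPM per kilobase over the 7 group means, with GAS5 at 111 to 157 and SNHG1 at 74.7 to 110. SNHG32 (56.1 to 83.8), ZFAS1 (35.3 to 62.8), SNHG8 (39.5 to 56.1) and SNHG3 (29.6 to 45.7) came next. The ranges of neighbours in this order overlapped except those of GAS5 and SNHG1, which met at 111 and 110. GAS5 is the growth arrest-specific transcript that holds 10 box C/D snoRNAs and 1 H/ACA snoRNA, and SNHG29 (LRRC75A-AS1) holds 3 box C/D snoRNAs. At the other end, SNHG31 lay at 0.153 to 0.281 and SNHG22 at 0.0567 to 0.116 CPM per kilobase. SNHG27 and SNHG28 had at most 18 and 13 counts in a library and did not pass the filter on low counts, so 30 members were tested in each table. Exon lengths come from GENCODE 29, and the authors may have counted with another release. Each length joins the exons of all annotated transcripts of a gene, so the order of the genes also depends on the annotation.

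**Figure D1:**
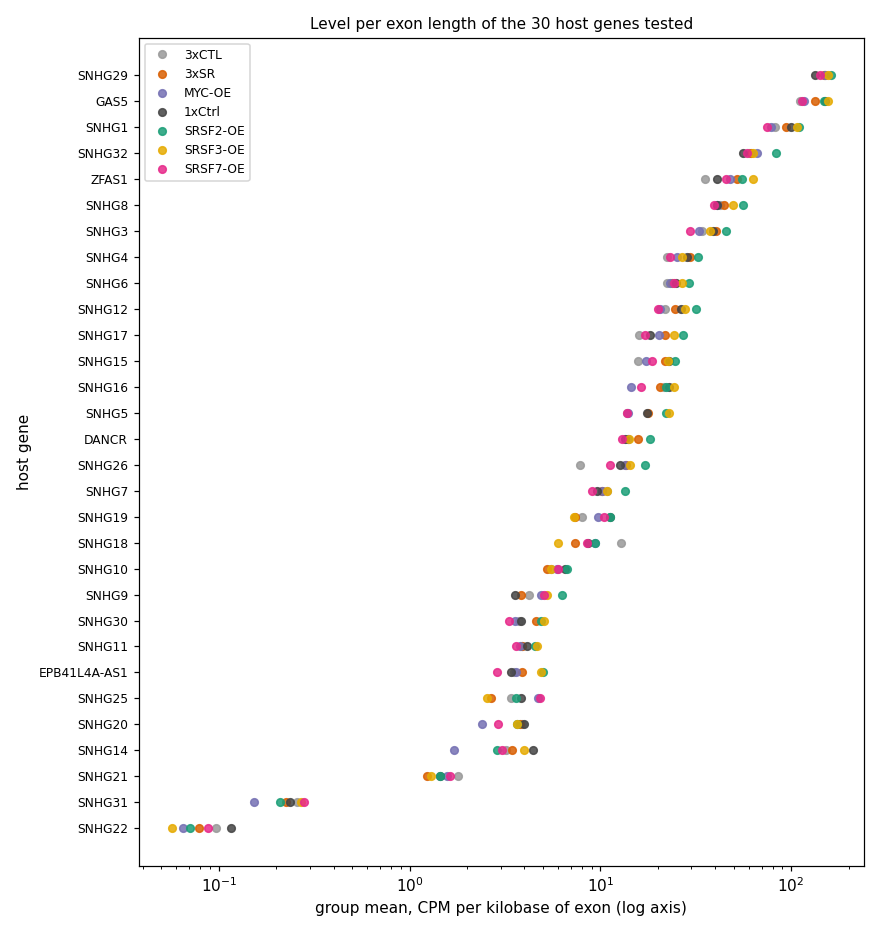
Level of the 30 host genes tested, one row per gene and one point per group (mean of 3 libraries), in CPM per kilobase of exon on a log axis. SNHG29, GAS5 and SNHG1 lie at the top right and SNHG31 and SNHG22 stand apart at the bottom left; the 7 groups of one gene lie close together compared with the distance between genes.

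Exon overlap limits some of these values. Small RNA genes, among them the snoRNAs inside the hosts, were left out of this count. By GENCODE 29, 7 members share exon bases with another gene on the same strand, 12 only with one on the opposite strand, and 13 with none. The 13 can still share exon bases with a snoRNA, as where the joined exons fill the span of SNHG9. SNHG14 shares 2426 of its 43324 exon bases with SNRPN and 2 other genes on its strand, and SNHG20 shares 460 with SEC14L1. SNHG4 shares 626 with MATR3 and SNHG3 242 with RCC1. EPB41L4A-AS1 shares 1659 of 3344 exon bases with EPB41L4A on the other strand, and SNHG16 shares 1639 of 5362. The libraries were stranded, but the strand setting of the counting is not given in the sources used here, so reads of such pairs cannot be told apart with certainty.

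The first question was whether the joint overexpression of the 3 SR proteins changed the host genes. In the libraries labelled 3xSR, 11 of 30 host genes were higher than in 3xCTL (36.7%) and 2 were lower (6.67%), by edgeR's quasi-likelihood test at an adjusted p of 0.05. Of all 23160 genes tested, 15.3% were called higher and 13.7% lower. The median log2 fold change of the host genes was 0.08, and that of all genes 0. In descending order the 11 were SNHG26, ZFAS1, SNHG15, SNHG17, SNHG4, SNHG5, SNHG30, GAS5, SNHG3, SNHG1 and DANCR. This count rested on few libraries: it was 6 without 3xCTL replicate 1, without 3xCTL replicate 3 or without 3xSR replicate 3, 7 without 3xSR replicate 2, and 14 without 3xCTL replicate 2.

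SNHG26 (chr7:22854178-22861579, plus strand, GRCh38), a non-coding RNA that holds SNORD93, had the largest rise. It was at 33.1, 37.8 and 36.6 CPM in 3xSR and at 19.0, 22.0 and 20.5 CPM in 3xCTL. The groups did not overlap, and the log2 fold change by edgeR was 0.80 (SE 0.0776, adjusted p = 1.31e-05), or 1.75-fold between group means. ZFAS1 (chr20:49278178-49295738, plus), which starts beside ZNFX1 on the opposite strand and holds the 3 SNORD12 genes, was at 116, 113 and 120 CPM in 3xSR and at 76.3, 85.5 and 75.6 CPM in 3xCTL. All 3 libraries of 3xSR lay above all controls, with a log2 fold change of 0.56 (edgeR, SE 0.0556, adjusted p = 1.73e-05). SNHG15 (chr7:44983023-44986961, minus), a known rapidly degraded RNA, was at 73.1, 84.4 and 80.6 CPM against 53.9, 59.7 and 58.8 CPM in 3xCTL. These groups did not overlap either (log2 fold change 0.47, edgeR SE 0.0625, adjusted p = 0.000172).

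SNHG18 (chr5:9546200-9550609, plus), the host of SNORD123, went the other way. It was at 14.1, 14.4 and 14.8 CPM in 3xSR and at 24.2, 25.8 and 24.7 CPM in 3xCTL. The groups lay far apart for their spread, with a log2 fold change of -0.79 (edgeR, SE 0.0592, adjusted p = 1.73e-06). SNHG21, a scaRNA host at low level, was at 1.25, 1.5 and 1.15 CPM in 3xSR and at 2.26, 1.59 and 1.84 CPM in 3xCTL (-0.54, edgeR SE 0.168, adjusted p = 0.0295). The groups did not overlap, but the gap was small and the call was lost without any 1 of 4 libraries (adjusted p = 0.121 without 3xCTL replicate 1, 0.0617 without 3xCTL replicate 3, 0.0908 without 3xSR replicate 1 and 0.111 without 3xSR replicate 3). SNHG21 shares 768 of its 1053 exon bases with an unnamed gene on its strand.

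In MYC-OE, set against the same control, host genes were called in both directions. Of the 30, 3 were called higher (10%, against 18.0% of all genes) and 5 lower (16.7%, against 17.3% of all genes), shares near or below the background. The median log2 fold change was 0 for the host genes and 0 for all genes. The 3 higher members were SNHG26, ZFAS1 and SNHG17. Without 3xCTL replicate 2, 7 were higher.

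SNHG26 was at 35.2, 37.8 and 32.3 CPM in MYC-OE, above every 3xCTL library (log2 fold change 0.77, edgeR SE 0.0775, adjusted p = 1.17e-05). ZFAS1 was at 108, 106 and 108 CPM in MYC-OE (0.44, edgeR SE 0.0555, adjusted p = 7.67e-05). Their values in 3xSR, given above, were set against the same control libraries. SNHG17 (chr20:38420588-38435353, minus), which holds 4 H/ACA snoRNAs of the SNORA71 group, was at 85.6, 83.2 and 86.1 CPM in MYC-OE and at 64.5, 67.7 and 67.1 CPM in 3xCTL. It did not overlap between the groups (0.36, edgeR SE 0.0580, adjusted p = 0.000516).

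SNHG14 (chr15:24978583-25419462, plus) had the largest fall called in MYC-OE. It was at 75.3, 72.9 and 74.7 CPM in MYC-OE and at 134, 146 and 137 CPM in 3xCTL. All MYC-OE libraries lay below all other libraries of the table, and the log2 fold change was -0.90 (edgeR, SE 0.0477, adjusted p = 5.86e-08). SNHG20 (chr17:77086716-77099902, plus), host of SCARNA16, was at 14.7, 14.2 and 15.0 CPM in MYC-OE against 22.0, 25.2 and 24.3 CPM (-0.70, edgeR SE 0.0729, adjusted p = 1.54e-05). SNHG16 (chr17:76557766-76565348, plus), host of the 3 SNORD1 genes, was at 79.6, 76.3 and 75.4 CPM against 107, 129 and 110 CPM (-0.58, edgeR SE 0.0660, adjusted p = 3.14e-05). For both genes all MYC-OE libraries lay below all controls. The other 2 that fell were SNHG18 (-0.45) and the low-level SNHG31 (-0.75, edgeR adjusted p = 0.035), whose call was lost in 5 of 16 alternatives (adjusted p up to 0.124, without MYC-OE replicate 3).

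The direct comparison tests where the MYC-OE and 3xSR lines differ, since their shared control drops out. In MYC-OE against 3xSR, 3 host genes were higher (10%, background 17.3%) and 10 lower (33.3%, background 17.6%), with a median log2 fold change of -0.11 against 0 for all genes. The 10 were SNHG14, SNHG20, SNHG16, SNHG30, SNHG5, SNHG15, SNHG3, SNHG1, SNHG12 and DANCR. SNHG14 differed most (-1.01, edgeR SE 0.0478, adjusted p = 1.09e-07). SNHG26 did not differ beyond the spread (-0.03, edgeR SE 0.0768, adjusted p = 0.801). The members higher in MYC-OE were SNHG18 (0.34, adjusted p = 0.00103 by edgeR) and the 2 short box C/D hosts SNHG25 (0.82, adjusted p = 0.00383) and SNHG19 (0.40, adjusted p = 0.0479). SNHG25 holds SNORD104, and the part of SNORD104 reads in the SNHG25 counts was not tested.

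**Figure D2:**
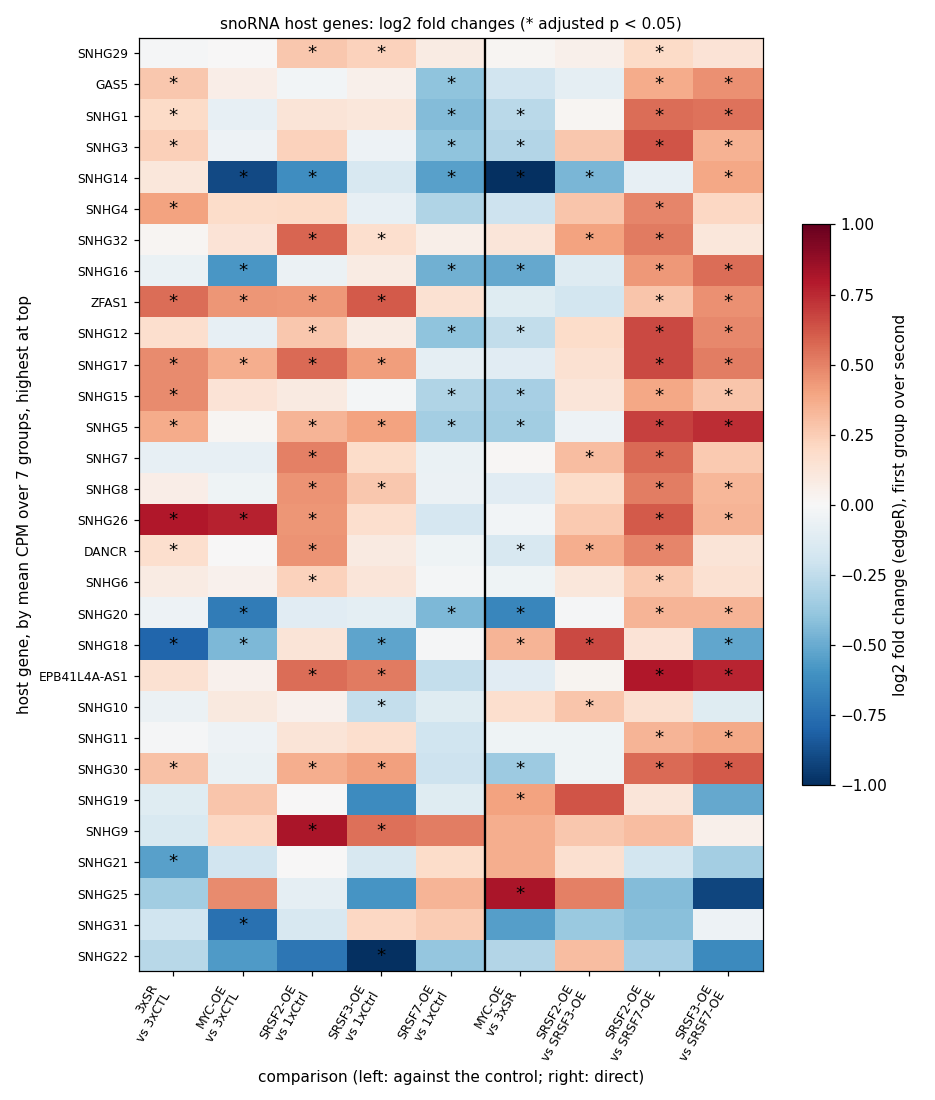
Log2 fold changes of the 30 host genes tested (rows, highest mean CPM at the top) in 5 comparisons against a control and 4 direct comparisons (columns); red is higher in the first group named and blue is lower, on a scale cut at 1 and -1, and asterisks mark edgeR adjusted p under 0.05. The SRSF7-OE column has asterisks on blue cells only, 9 of them, and the SRSF2-OE against SRSF7-OE column has them on red cells only, 21 of them.

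The second table holds the lines labelled for 1 SR protein each, with the changes in the other SR genes given above. In the libraries labelled SRSF2-OE, 14 of 30 host genes were higher than in 1xCtrl (46.7%) and 1 was lower (3.33%), where 11.6% of all 24362 genes tested were higher and 11.9% lower. The median log2 fold change of the host genes was 0.21, against -0.01 for all genes. The 14 were SNHG9, SNHG32, SNHG17, EPB41L4A-AS1, SNHG7, SNHG8, DANCR, SNHG26, ZFAS1, SNHG30, SNHG5, SNHG29, SNHG12 and SNHG6. Without 1xCtrl replicate 1 the count was 9, as it was when only the compared groups were fitted.

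SNHG32 (chr6:31834608-31839766, plus), annotated earlier as C6orf48 and host of SNORD48 and SNORD52, was at 144, 160 and 148 CPM where the label is SRSF2-OE and at 97.9, 97.2 and 108 CPM in 1xCtrl. The groups did not overlap (log2 fold change 0.58, edgeR SE 0.0593, adjusted p = 2.61e-05). SNHG17 was at 107, 116 and 118 CPM against 76.8, 75.5 and 77.3 CPM (0.57, edgeR SE 0.0645, adjusted p = 5.54e-05), again with every library of the line above every control. The largest fold change belonged to SNHG9, a short H/ACA host at low level, at 3.38, 2.99 and 4.05 CPM against 1.63, 2.68 and 1.58 CPM (0.82, edgeR SE 0.195, adjusted p = 0.00816). The groups came close, and this call was lost with only the compared groups (adjusted p = 0.0934) and without any of 4 libraries (0.0866 without 1xCtrl replicate 1, 0.0534 without 1xCtrl replicate 3, 0.0523 without SRSF2-OE replicate 1 and 0.0866 without SRSF2-OE replicate 3). SNHG14 alone was lower, at 121, 128 and 127 CPM against 202, 169 and 207 CPM in 1xCtrl, with no overlap (-0.62, edgeR SE 0.0758, adjusted p = 9.71e-05).

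In SRSF3-OE, 9 host genes were higher (30%, against 15.0% of all genes) and 3 lower (10%, against 14.1%), with a median log2 fold change of 0.10 against -0.03 for all genes. With library totals alone in place of TMM the host gene median was -0.01, that of all genes -0.14, and 5 members were higher. In descending order the 9 were ZFAS1, SNHG9, EPB41L4A-AS1, SNHG17, SNHG30, SNHG5, SNHG8, SNHG29 and SNHG32. The SNHG9 values overlapped with those of 1xCtrl. ZFAS1 reached its highest level of the second table here, 144, 142 and 137 CPM, against 86.6, 84.7 and 105 CPM in 1xCtrl (0.61, edgeR SE 0.0816, adjusted p = 0.00011). EPB41L4A-AS1 (chr5:112160526-112164276, plus), host of SNORA13, was at 13.9, 18.9 and 16.4 CPM against 11.9, 10.6 and 11.8 CPM (0.52, edgeR SE 0.115, adjusted p = 0.00373). SNHG17 was at 95, 112 and 99.8 CPM (0.42, edgeR SE 0.0644, adjusted p = 0.000333). In all of these every SRSF3-OE library lay above every control.

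SNHG18 was lower in SRSF3-OE, at 11.5, 12.6 and 10.8 CPM against 16, 16 and 18.4 CPM in 1xCtrl (-0.53, edgeR SE 0.0845, adjusted p = 0.000422), with no overlap. SNHG10, a scaRNA host, was at 9.78, 11.7 and 10.9 CPM against 12.9, 12.5 and 12.7 CPM (-0.24, edgeR SE 0.0813, adjusted p = 0.0437). Its groups did not overlap, but the adjusted p was 0.0697 without SRSF3-OE replicate 1, 0.0701 with only the compared groups and 0.0751 with a replicate block. The last of the 3 was SNHG22, another scaRNA host, at a mean of 0.147 CPM against 0.300 CPM (-1.03, edgeR adjusted p = 0.0457). Its call was lost in 8 of 16 alternatives, with an adjusted p of 0.0568 with a replicate block, 0.0546 by limma-voom and 0.134 without SRSF3-OE replicate 1.

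SRSF7-OE had no host gene called higher (0%, against 9.03% of all genes) and 9 called lower (30%, against 8.26%). The median log2 fold change was -0.14, against 0 for all genes, and 23 of the 30 values were negative. At an unadjusted p of 0.05, edgeR had 1 member higher and 11 lower, and with adjustment DESeq2 and limma-voom also gave 0 higher, with 11 and 9 lower. The 9 were SNHG14, SNHG16, SNHG20, SNHG1, GAS5, SNHG3, SNHG12, SNHG5 and SNHG15, and 8 to 12 were called in the alternatives tried. They include GAS5 and SNHG1, the hosts with the most box C/D snoRNAs after SNHG14.

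GAS5 (chr1:173863900-173868882, minus) was at 424, 436 and 386 CPM in SRSF7-OE and at 549, 498 and 601 CPM in 1xCtrl, with no overlap (-0.40, edgeR SE 0.0785, adjusted p = 0.00407). SNHG1 (chr11:62851988-62855914, minus), with 8 box C/D snoRNAs, was at 278, 296 and 268 CPM against 371, 353 and 408 CPM (-0.43, edgeR SE 0.0717, adjusted p = 0.00183). These are 2 of the 3 hosts with the highest level per length, and both lay below every control library. By size of change, SNHG14 came first, at 136, 137 and 124 CPM against 202, 169 and 207 CPM (-0.54, edgeR SE 0.0757, adjusted p = 0.000648). SNHG16 was at 87.5, 92.3 and 83.9 CPM against 124, 105 and 140 CPM (-0.48, edgeR SE 0.0837, adjusted p = 0.00212), and SNHG20 at 18.1, 17.3 and 17.6 CPM against 23.9, 23.1 and 25.2 CPM (-0.45, edgeR SE 0.0826, adjusted p = 0.00302). SNHG14, SNHG16 and SNHG20, which fell most here among members called with no overlap and a mean of at least 1 CPM, are also the 3 that fell most by the same rule in MYC-OE, a comparison that shares no library with this one. Without the limit on CPM, SNHG31 (-0.75) would stand among the 3 in MYC-OE. The match between the 2 lines was not tested, and SNHG14 was also lower in SRSF2-OE (-0.62).

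The 3 single lines share 1xCtrl, so their values stand side by side and the direct comparisons carry the tests of difference. Against SRSF7-OE, the libraries labelled SRSF2-OE had 21 host genes higher by edgeR (70.0%, background 11.5%) and 0 lower (background 12.8%; also 0 at an unadjusted p of 0.05, by DESeq2 and by limma-voom), with a median log2 fold change of 0.38 against -0.01 for all genes. SRSF3-OE against SRSF7-OE gave 16 higher (53.3%, background 17.8%) and 1 lower, SNHG18 (3.33%, background 17.3%), with a median of 0.30 against -0.02. Between SRSF2-OE and SRSF3-OE, 5 host genes were higher in SRSF2-OE (16.7%, background 12.6%) and 1 lower (3.33%, background 14.1%), and the number of calls moved from 6 to between 4 and 14 over the alternatives. Those 5 were SNHG18, SNHG32, DANCR, SNHG7 and SNHG10, and the 1 lower was SNHG14.

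SNHG5 (chr6:85660950-85678748, minus), the TOP-start host of SNORD50A and SNORD50B, moved both ways in the second table. It was at 58.3, 64.7 and 63.6 CPM under the SRSF2-OE label, 63.9, 66.1 and 63.8 CPM in SRSF3-OE, 39.5, 40.4 and 36.5 CPM in SRSF7-OE and 46.7, 46.6 and 53.9 CPM in 1xCtrl. The control lay between the lines and overlapped with none of them. SNHG5 was called higher in SRSF2-OE (0.34, edgeR adjusted p = 0.00338) and SRSF3-OE (0.40, adjusted p = 0.000889) and lower in SRSF7-OE (-0.34, adjusted p = 0.00596). In the first table it was at 47.6, 52.2 and 50 CPM in 3xSR, above all 3xCTL libraries at 36.5, 42.6 and 36.9 CPM (0.37, edgeR adjusted p = 0.00154), and in MYC-OE it was at 39.5, 40.6 and 37.4 CPM (0.02, adjusted p = 0.858).

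SNHG12 (chr1:28578538-28583132, minus), with 3 H/ACA snoRNAs and 1 box C/D snoRNA, was higher than the control under 1 label and lower in another line. It was at 117, 148 and 140 CPM under the SRSF2-OE label, at 87.7, 86.9 and 81.6 CPM in SRSF7-OE and at 111, 106 and 121 CPM in 1xCtrl. SRSF2-OE replicate 1 lay within the control range (0.27, edgeR adjusted p = 0.0407), while all SRSF7-OE libraries lay below it (-0.40, adjusted p = 0.00732). The higher call was lost in 9 of 16 alternatives (adjusted p up to 0.217, without SRSF2-OE replicate 2), and the lower call in none of them.

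**Figure D3:**
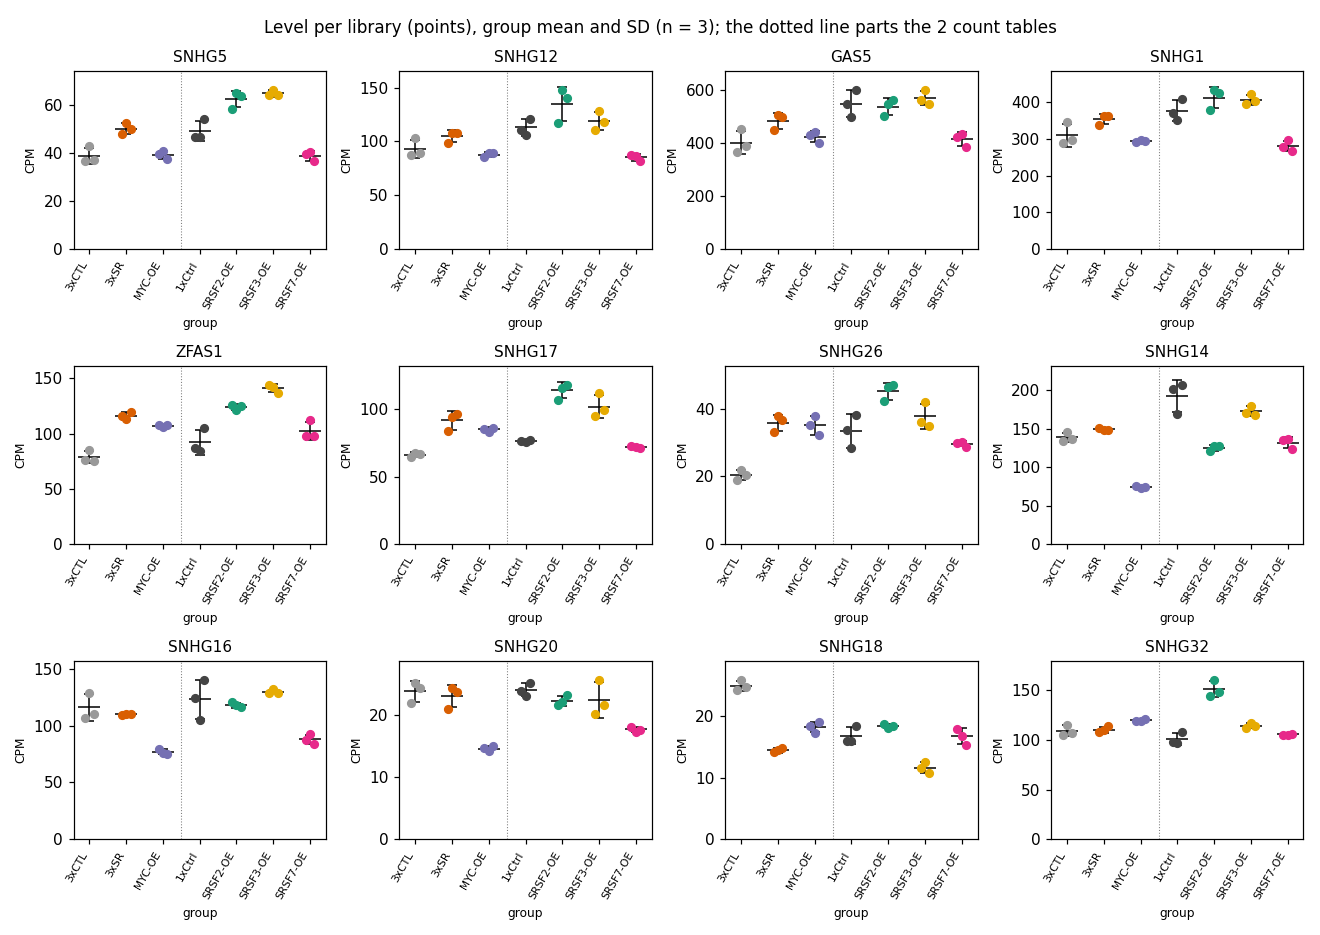
Level of 12 host genes in each of the 21 libraries (points, CPM on a linear axis from 0), with the group mean and SD (horizontal tick and bar, n = 3); the dotted line separates the 2 count tables. SNHG5 in SRSF7-OE lies below the control and in SRSF2-OE and SRSF3-OE above it, SNHG14 is lowest in MYC-OE, and ZFAS1 is highest in SRSF3-OE.

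As an account of all members over the 5 comparisons against a control, 13 of the 30 members were called in the higher direction only, 8 in the lower direction only, 6 in both directions in different lines (GAS5, SNHG1, SNHG3, SNHG5, SNHG12 and SNHG15) and 3 in none (SNHG11, SNHG19 and SNHG25). Of the 6, SNHG5 and SNHG15 kept their calls in both directions in all 16 alternatives, while the higher calls of GAS5 and SNHG3 in 3xSR held in 12, and those of SNHG1 in 3xSR and SNHG12 in SRSF2-OE in 7. ZFAS1 and SNHG17 were higher in every line but SRSF7-OE, where ZFAS1 had a log2 fold change of 0.15 (edgeR adjusted p = 0.232) and SNHG17 one of -0.09 (adjusted p = 0.389). SNHG14 and SNHG18 were each lower in 3 lines. Comparisons within a table share control libraries, so these counts are not independent of one another. In each single comparison, 9.03 to 18.0% of all genes were called higher and 8.26 to 17.3% lower. Calls over the 5 comparisons were not counted in this way for all genes. The counts are thus not read as particular to host genes.

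**Figure D4:**
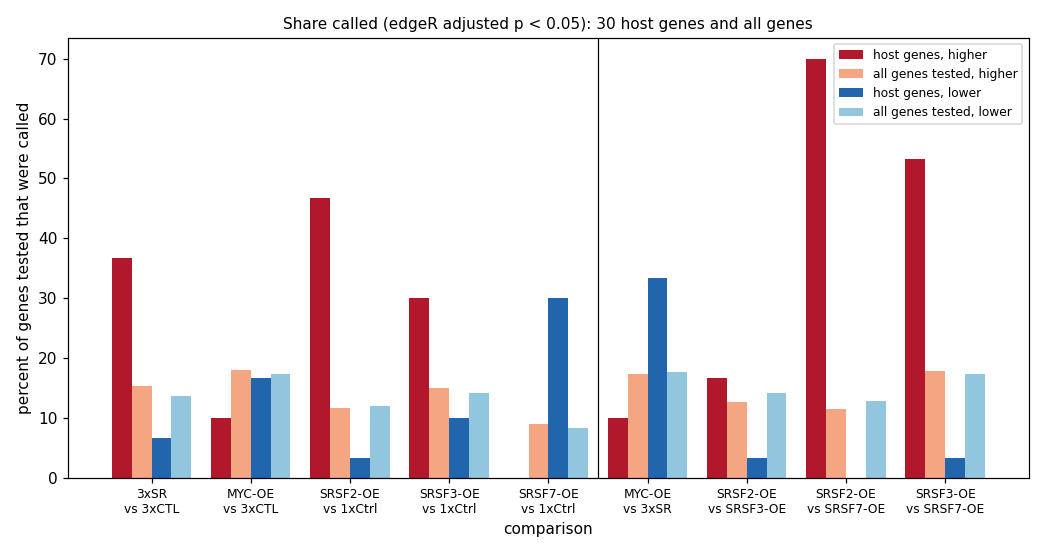
Percent of the 30 host genes (dark bars) and of all genes tested (light bars) called higher (red) or lower (blue) by edgeR at adjusted p under 0.05, in 5 comparisons against a control (left of the line) and 4 direct comparisons (right). The dark red bar is above the light red bar in 3xSR, SRSF2-OE and SRSF3-OE, no dark red bar stands at SRSF7-OE, and the dark blue bar there reaches 30% against 8.26%.

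By cargo, the 4 scaRNA hosts had 0 members called higher in any line against its control. At an unadjusted p of 0.05, edgeR, DESeq2 and limma-voom also gave 0. SNHG21 (3xSR), SNHG20 (MYC-OE and SRSF7-OE), SNHG10 and SNHG22 (both SRSF3-OE) were lower. The lower calls of SNHG21, SNHG10 and SNHG22 were lost in 4, 3 and 8 of the alternatives tried, and those of SNHG20 in none. Per line, 9.03 to 18.0% of all genes were higher and 8.26 to 17.3% lower. With 4 hosts, a count of 0 in a line cannot be told from these shares. Lines of one table also share a control, so the count over lines is not read as particular to scaRNA hosts. Of the 11 H/ACA hosts, 6 were higher and 0 lower by edgeR in the libraries labelled SRSF2-OE (7 and 0 at an unadjusted p of 0.05, median log2 fold change 0.45), while 7 of the 13 box C/D hosts were higher and 1 lower there (median 0.23). Over all genes, 11.6% were higher and 11.9% lower in SRSF2-OE, and 8.26% were lower in SRSF7-OE. In SRSF7-OE, 2 H/ACA and 4 box C/D hosts were lower, as were both hosts of the 2 kinds, GAS5 and SNHG12. A split by start follows the RefSeq start, which was not measured in these cells, so it cannot separate TOP hosts from others. GAS5 falls among the others, but its RefSeq window (chr1:173869031-173869060) lies outside its GENCODE bounds (chr1:173863900-173868882). By start, the 7 members that begin with a pyrimidine tract had 4 higher and 0 lower in SRSF2-OE by edgeR (median 0.27). The 19 other tested members with a promoter window had 8 higher and 1 lower (median 0.13). The medians of the 2 sets were in the opposite order in SRSF3-OE, at 0.08 for the pyrimidine starts (3 higher, 1 lower) and 0.11 for the others (5 higher, 2 lower), where 15.0% of all genes were higher and 14.1% lower. The 7 do not move as one: in 3xSR, ZFAS1 was at 0.56, SNHG4 at 0.40, SNHG5 at 0.37 and SNHG18 at -0.79 on the log2 scale, though all 4 begin with the tract shown above.

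The share of counts in mitochondrially encoded genes differed between groups, in some of them together with the summed host gene level. That share was lowest in the 2 lines where more host genes were lower than higher, at 9.36 to 9.75% in MYC-OE and 9.23 to 10.1% in SRSF7-OE. In MYC-OE this order of the counts (3 higher, 5 lower) did not hold in every alternative. The higher count there ran from 3 to 7 and the lower count from 4 to 6. The libraries of 3xCTL had 10.9 to 12.2%, those of 3xSR 10.5 to 12.3%, those of 1xCtrl 10.3 to 12.8%, those labelled SRSF2-OE 11.8 to 13.6% and those of SRSF3-OE 10.2 to 12.6%. Summed over the 32 members, the level was 2390 ± 90.0 CPM (SD, n = 3) in SRSF7-OE, 2810 ± 215 in its control, 3050 ± 118 in SRSF3-OE and 3140 ± 124 under the SRSF2-OE label. In the first table it was 2480 ± 172 CPM in 3xCTL, 2780 ± 101 in 3xSR and 2440 ± 30.6 in MYC-OE. In 3xSR and SRSF3-OE the sum was above that of the control while the ranges of the share overlapped, and in MYC-OE the share was lower at a sum close to the control's. Within a group, both values were at the same end in some libraries: 1xCtrl replicate 2 had the lowest mitochondrial share (10.3%) and the lowest host sum (2600 CPM) of its group, and 3xCTL replicate 2 the highest of both in its group (12.2% and 2670 CPM). The part of this in the results was not tested. Without 1xCtrl replicate 2, 13 members were higher in SRSF2-OE, 9 in SRSF3-OE and 12 lower in SRSF7-OE.

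**Figure D5:**
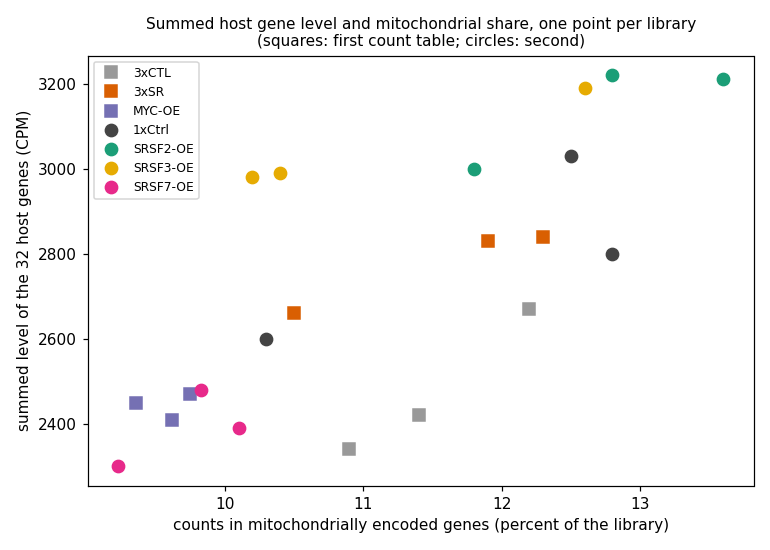
Summed level of the 32 host genes (CPM, vertical axis, which does not start at 0) against the percent of counts in mitochondrially encoded genes (horizontal axis), one point per library, coloured by group. The MYC-OE and SRSF7-OE libraries lie at the lower left, between 9.23 and 10.1% and between 2300 and 2480 CPM; 2 SRSF3-OE libraries at 10.2 and 10.4% lie near 3000 CPM.

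Other genes of the pathway were taken from 4 lists. All counts in this and the next paragraphs are edgeR calls at an adjusted p of 0.05, to be read against the share of all genes called: 15.3% higher and 13.7% lower in 3xSR, 18.0% and 17.3% in MYC-OE, 11.6% and 11.9% in SRSF2-OE, 15.0% and 14.1% in SRSF3-OE, and 9.03% and 8.26% in SRSF7-OE. Protein-coding snoRNA hosts are mostly ribosomal protein and translation factor genes. Of 43 tested, 5 were higher and 0 lower in 3xSR, 23 and 2 in MYC-OE, 22 and 0 under the SRSF2-OE label, 22 and 0 in SRSF3-OE, and 18 and 2 in SRSF7-OE. The share higher was 11.6% in 3xSR, below that of all genes, and 41.9 to 53.5% in the other 4 lines. At an unadjusted p of 0.05, the counts of 0 became 5 in 3xSR, 1 in SRSF2-OE and 0 in SRSF3-OE, and with adjustment DESeq2 gave 1, 0 and 0 and limma-voom 0 in each. In SRSF7-OE, RPL13 rose from 170 to 245 CPM (log2 fold change 0.52, edgeR adjusted p = 0.00156). The 2 that fell there were TAF1D, a subunit of the RNA polymerase I factor SL1, from 462 to 354 CPM (-0.38, edgeR adjusted p = 0.00497) and NOP56, a core box C/D protein, from 455 to 390 CPM (-0.22, adjusted p = 0.0217, or 0.0586 with only the compared groups). In MYC-OE, RPL21 rose from 465 to 717 CPM (0.63, edgeR adjusted p = 1.96e-05). The list's median log2 fold change was 0.03 (3xSR), 0.19 (MYC-OE), 0.23 (SRSF2-OE), 0.24 (SRSF3-OE) and 0.23 (SRSF7-OE), beside the medians of all genes given above (0, 0, -0.01, -0.03 and 0).

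The 18 proteins of snoRNP cores and their assembly had 15 members higher and 0 lower in SRSF3-OE (16 and 0 at an unadjusted p of 0.05, and 15 and 0 by DESeq2 and limma-voom), led by NUFIP1, an assembly factor (0.63, edgeR adjusted p = 3.36e-05). They had 9 higher and 1 lower under the SRSF2-OE label, 3 and 2 in SRSF7-OE, 3 and 3 in MYC-OE, and 1 and 0 in 3xSR (2 and 1 at an unadjusted p, and 1 and 0 by DESeq2 and limma-voom). The 83.3% higher in SRSF3-OE and 50% in SRSF2-OE lay above the share of all genes, the 16.7% higher and 16.7% lower in MYC-OE were near it, and the 5.56% higher in 3xSR was below it. The median was 0.33 in SRSF3-OE, 0.26 in SRSF2-OE, 0.12 in SRSF7-OE, 0 in MYC-OE and 0.04 in 3xSR. FBL, the methyltransferase of box C/D particles, fell from 159 to 88.6 CPM in MYC-OE (-0.84, edgeR adjusted p = 1.02e-07) and from 136 to 107 CPM in SRSF2-OE (-0.35, adjusted p = 0.00082). NHP2, a core H/ACA protein, rose in MYC-OE (0.49, edgeR adjusted p = 0.00115) and in SRSF7-OE (0.60, adjusted p = 0.00717). The call in SRSF7-OE was lost in 4 of 16 alternatives (adjusted p up to 0.0895, without 1xCtrl replicate 1).

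Of the 18 nonsense-mediated decay factors, 1 was higher and 2 were lower in 3xSR, 0 and 2 in MYC-OE, 6 and 1 in those labelled SRSF2-OE, 11 and 0 in SRSF3-OE, and 2 and 1 in SRSF7-OE. The shares called were 61.1% higher in SRSF3-OE and 33.3% in SRSF2-OE, while those in 3xSR (5.56% higher, 11.1% lower) and MYC-OE (11.1% lower) were below the share of all genes. At an unadjusted p of 0.05 the counts of 0 were 1 higher in MYC-OE and 0 lower in SRSF3-OE, and DESeq2 and limma-voom with adjustment also gave 1 and 0. The median was -0.02 in 3xSR, -0.12 in MYC-OE, -0.02 in SRSF7-OE, 0.24 in SRSF3-OE and 0.12 in SRSF2-OE. In SRSF3-OE the release factor ETF1 (0.51, edgeR adjusted p = 0.000217) and the exon junction protein RBM8A (0.49, adjusted p = 6.89e-05) rose most. In MYC-OE the exon junction helicase EIF4A3 fell from 139 to 99.0 CPM (-0.49, edgeR adjusted p = 2.3e-05). SMG1, the kinase that phosphorylates UPF1, rose in 3xSR (0.31, edgeR adjusted p = 0.00392) and was at -0.25 in SRSF2-OE (adjusted p = 0.0498, a call lost in 6 of 16 alternatives, up to 0.0784 with a replicate block).

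Of 7 protein-coding mRNAs known as targets of the same decay, 3 were higher and 2 lower in 3xSR, 3 and 1 in MYC-OE, 4 and 0 in those labelled SRSF2-OE, 4 and 0 in SRSF3-OE, and 0 and 3 in SRSF7-OE. With 7 genes, 1 gene is 14.3% of the list. At an unadjusted p of 0.05 the counts of 0 were 0, 0 and 2 in turn, and DESeq2 and limma-voom with adjustment gave 0 in each. The median was 0.24 in 3xSR, 0.14 in MYC-OE, -0.08 in SRSF7-OE, 0.43 in SRSF3-OE and 0.33 in SRSF2-OE. The stress factor ATF3 rose from 3.31 to 8.69 CPM in 3xSR (1.39, edgeR adjusted p = 6.12e-07), to 7.51 CPM in MYC-OE (1.18, adjusted p = 1.37e-06) and from 6.21 to 14.2 CPM in SRSF3-OE (1.20, adjusted p = 5.8e-07). It fell to 4.58 CPM in SRSF7-OE (-0.44, edgeR adjusted p = 0.00312). GADD45A, a growth arrest gene, rose from 19.2 to 29.4 CPM in SRSF2-OE (0.62, edgeR adjusted p = 0.000212) and to 30.8 CPM in SRSF3-OE (0.69, adjusted p = 5.74e-05). RNA decay was not measured, and ATF3 and GADD45A are also stress-induced genes.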

How the data were processed

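The deposited values are whole-number counts per gene in 2 tables, which the authors did not scale to a common total. Per the submitters' processing notes, Trimmomatic 0.39, STAR, StringTie 2.1.3b and GRCh38.p13 were used, with no role stated; if StringTie gave the counts, they are estimates from coverage. Annotation release, strand setting and how a read pair was counted are not given in the sources used here. Libraries were grouped by title.

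In R 4.3.3, edgeR 4.0.16 was fitted per table over all its groups and genes (filterByExpr with minimum count 10 and total 15, TMM, robust quasi-likelihood F test, two-sided, Benjamini-Hochberg adjustment, threshold 0.05). The SE is the log2 fold change divided by the square root of F. Overlap was judged on CPM. The procedure was run on simulated counts in which every gene has the same spread, unlike these data. That checks how the procedure runs and not its error rates here, least of all for low-level genes. Members with every replicate printed are, per comparison with a control, the 3 highest and 3 lowest log2 fold changes among calls with a mean of at least 1 CPM and no overlap. SNHG5, SNHG12, GAS5 and SNHG1 in the second table were added after their values were seen. Of each pathway list, up to the 2 highest and 2 lowest calls are named, except for a gene that is not reported here. Members and lists were chosen with earlier results of these data known.

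Positions, exon lengths and overlaps are from GENCODE 29, and snoRNA content and sequences from RefSeq. Alternatives were RLE, upper-quartile or total scaling, no or a stricter filter, DESeq2 1.42.0, limma-voom (limma 3.58.1), only the compared groups, the replicate block, removal of each library's GC trend, and leaving out each replicate. Limits from 3 counts cover counting error only. Splicing was not analysed here.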

Additional observations from a re-analysis of the deposited data

Results flagged for a closer look

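Of the host genes, 2 were called higher in 1 line and lower in another against the same control, and were called in the direct comparison of the lines. Over all genes, 11.6% were higher in SRSF2-OE, 15.0% higher in SRSF3-OE and 8.26% lower in SRSF7-OE. Genes that meet the whole rule were not counted over all genes, so the 2 are not read as particular to host genes. The direct call is part of the rule, so the p-values below are not separate support. SNHG5 was higher by a log2 fold change of 0.68 in the libraries labelled SRSF2-OE than in SRSF7-OE (edgeR, SE 0.0705, adjusted p = 2.79e-05) and by 0.74 in SRSF3-OE than in SRSF7-OE (edgeR, SE 0.0706, adjusted p = 5.18e-06), with no overlap between the lines in either case. SNHG12 was higher by 0.66 in SRSF2-OE than in SRSF7-OE (edgeR, SE 0.0868, adjusted p = 0.000151), and the call of this difference held in every alternative tried (0.58 to 0.74), though its higher call against 1xCtrl did not. With 3 libraries per group, single libraries far from the others were not looked for by a test.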

How the results depend on the processing

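Of 61 results on single host genes, 42 kept their direction and their call in all alternatives, none reversed, and 19 lost the call in at least 1. SNHG9 and SNHG32 in SRSF3-OE and DANCR in 3xSR lost it in 12, 11 and 11 of 16. Of 53 results on single pathway genes, 39 kept the call in all, 14 lost it in at least 1 and none reversed. The count of members higher in MYC-OE was 3 and became 5 with at least 10 counts in every library, 5 with limma-voom and 7 with the GC trend removed. Members higher in SRSF2-OE went from 14 to 9 with only the groups compared. Members higher in SRSF3-OE went from 9 to 5 with upper-quartile scaling, with library totals alone and with only the groups compared. Calls between SRSF2-OE and SRSF3-OE went from 6 to 11 with upper-quartile scaling, with library totals alone and with the GC trend removed, to 10 with the stricter filter and to 14 with only the groups compared. The causes were not tested.

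Leaving out 1 replicate gave ranges of 6 to 14 higher and 1 to 4 lower in 3xSR, 3 to 7 and 4 to 5 in MYC-OE, 9 to 13 and 1 to 2 in SRSF2-OE, 6 to 9 and 1 to 4 in SRSF3-OE, and 0 to 1 and 9 to 12 in SRSF7-OE. The direct comparisons gave 10 to 13 calls for MYC-OE against 3xSR, 4 to 11 for SRSF2-OE against SRSF3-OE, 19 to 20 for SRSF2-OE against SRSF7-OE and 16 to 19 for SRSF3-OE against SRSF7-OE. The lower count in 3xSR was 4 without 3xCTL replicate 2 and 1 without 3xCTL replicate 1, 3xCTL replicate 3, 3xSR replicate 1 or 3xSR replicate 3. In SRSF3-OE it was 1 without SRSF3-OE replicate 1, and in SRSF2-OE 2 without 1xCtrl replicate 2. Calls between SRSF2-OE and SRSF3-OE were 11 without SRSF2-OE replicate 1. Of the 20 tests of the overexpressed genes, 12 were called, and 10 to 14 in the alternatives.

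Same-numbered libraries did not deviate together (correlations of -0.19 to 0.0543 over 27 pairs of libraries from 9 pairs of groups), so the numbers were not taken to pair libraries. With the replicate block, members higher and lower were 11 and 2 in 3xSR, 4 and 5 in MYC-OE, 13 and 1 in SRSF2-OE, 7 and 1 in SRSF3-OE, and 0 and 9 in SRSF7-OE. The lower count in SRSF3-OE thus went from 3 to 1.

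Scaling by library totals moved the share of calls that were higher over all genes from 49.2% to 36.7% in SRSF2-OE, from 51.6% to 32.1% in SRSF3-OE (38.6% with upper-quartile scaling), from 47.3% to 36.6% in SRSF2-OE against SRSF7-OE and from 50.7% to 35.3% in SRSF3-OE against SRSF7-OE. Between SRSF2-OE and SRSF3-OE it went from 47.2% to 61.0% with upper-quartile scaling. At this depth SNHG27 and SNHG28 were too low to test.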

Other observations

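For SNHG19 and SNHG25, 2 short host genes, replicates differed widely in 2 groups of the second table. SNHG19, with 342 exon bases, was at 3.06, 5.63 and 2.89 CPM in 1xCtrl and at 3.53, 1.97 and 5.14 CPM in SRSF7-OE, and SNHG25, with 278, was at 0.948, 1.60 and 0.631 CPM in 1xCtrl and at 1.17, 0.865 and 1.98 CPM in SRSF7-OE. The highest value of both genes in 1xCtrl was in replicate 2. In SRSF2-OE and SRSF3-OE the spread was smaller, with SNHG19 at 3.86 ± 0.293 and 2.5 ± 0.161 CPM (SD, n = 3). Neither gene was called in any line against its control.

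Among the 9 host genes called lower in SRSF7-OE, the 6 other than SNHG14, SNHG16 and SNHG20 had log2 fold changes in the libraries labelled 3xSR of 0.27 (GAS5), 0.19 (SNHG1), 0.24 (SNHG3), 0.17 (SNHG12), 0.37 (SNHG5) and 0.47 (SNHG15). All but SNHG12 (edgeR adjusted p = 0.0749) were called higher there, in the line whose label includes SRSF7. Only SNHG5 and SNHG15 kept that call in all 16 alternatives. For comparison, 15.3% of all genes and 36.7% of the 30 host genes were called higher in 3xSR. The 6 were set apart by no rule fixed beforehand. The other 3 were not called in 3xSR, at 0.11 (SNHG14), -0.07 (SNHG16) and -0.05 (SNHG20). The 2 comparisons use different control libraries and different tables, and the difference between them was not tested.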
